A study of Xenopus laevis with 8 samples.

Results

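The genes described here encode the nuclear-coded subunits of the mitochondrial respiratory chain and ATP synthase. They were taken by symbol: names that start with nduf (complex I), sdha to sdhd (complex II), uqcr (complex III), cox4 to cox8 (complex IV) or atp5 (complex V), counting the .L and .S homeologs of Xenopus laevis as separate genes. The choice used no measured change, but it was made with earlier results of these data known. It gave 84 of the 11303 named genes on the array, from 61 gene stems, each represented by the probe set with the highest mean over the 8 arrays. Complex I had 35 members, complex II 5, complex III 8, complex IV 16 and complex V 20. By symbol, 80 of the 84 were counted as subunits, with cox7a2l.L, named like a complex IV subunit, among them. Of the others, 3 are complex I assembly factors (ndufaf2.L, ndufaf4.L and ndufaf7.S) and 1 is an inhibitor of ATP synthase (atp5if1.L). Subunits encoded by mitochondrial DNA were not analysed here.

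The study asked which genes become more abundant in frog endoderm when Neurogenin 3 is activated. All embryos, in both groups, had been injected at the 8-cell stage, into 2 dorsal vegetal blastomeres, with mRNA for Ngn3-GR, a fusion of this proneural and endocrine transcription factor to a glucocorticoid receptor domain that dexamethasone switches on. The DEX group (4 arrays) was kept in 10 µM dexamethasone for 4 hours from stage 12, and the no_DEX group (4 arrays) was not. Anterior endoderm was dissected from both at Nieuwkoop and Faber stage 15, and its total RNA was hybridised to Affymetrix arrays. The fusion protein comes from injected mRNA, so it is inherited by the progeny of the injected blastomeres, and untreated embryos hold it too. No group with dexamethasone but without the fusion was analysed here, so an effect of the hormone itself cannot be told apart from one of the activated fusion. Each group has biological replicates numbered 1 to 4, per the labels, which do not say what a number stands for, and arrays with the same number resembled each other. A pair below is a DEX and a no_DEX array of the same number. Values listed for 4 arrays or 4 pairs stand in the order of their replicate numbers.

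The respiratory chain sits in the inner mitochondrial membrane. Complex I takes electrons from NADH and complex II takes them from succinate, complex III passes them through cytochrome c to complex IV, which reduces oxygen, and complex V uses the proton gradient that complexes I, III and IV build to make ATP. Most subunits come from nuclear genes, and eggs supply the embryo with a large store of mitochondria. Pyruvate dehydrogenase kinases such as pdk4 switch off the enzyme complex that feeds pyruvate carbon into the citric acid cycle upstream of this chain, and pdk4 is known in mammals as a glucocorticoid-responsive gene.

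Signals are log2 values, so a difference of 1 is a doubling, and group levels are mean ± SD over 4 arrays. Array medians were 6.02 to 6.12. Background, read from 17 control probe sets for absent sequences, reached 4.40. The GAPDH control probe sets, whose 3' minus 5' difference reports RNA integrity, gave 0.13 to 0.36 over the arrays. Endoderm markers checked the labelled tissue: 16 of 17 were above background, and hhex.L was not. Markers of other cell types were above background as well: 14 of 20 skeletal muscle, 7 of 7 notochord, 12 of 13 neural and 10 of 10 epidermal markers. So were 22220 of all 32539 probe sets and 8925 of the 11303 named genes. Such counts alone therefore do not show which cells were present. In dissected bulk tissue, fewer cells of a type and less RNA per cell cannot be told apart.

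The respiratory chain was well detected in this dissected bulk tissue. Of the 84 members, 83 had a mean above background, against 8925 of the 11303 named genes. Their means ran from 3.94 to 12.5 with a median of 9.47, and the median member stood at percentile 88.1 of the 32539 probe sets tested. Taking the brightest probe set of each gene raises this rank. The named genes, chosen the same way, had a median of 7.39, at percentile 66.2. Median signal was 8.83 for complex I, 9.12 for complex II, 9.93 for complex III, 10.4 for complex IV and 9.67 for complex V. Probe sets differ in how brightly they bind, so these medians describe the signals on the array and do not rank the amounts of RNA. The brightest member of each complex was ndufa4.L (11.4), sdhb.S (10.9), uqcrfs1.S (12.37), cox5a.S (12.0) and atp5f1b.S (12.5). These encode a small subunit named for complex I that in mammals is found with complex IV, the iron-sulfur subunit of succinate dehydrogenase, the Rieske iron-sulfur protein, a nuclear-coded cytochrome oxidase subunit and the catalytic beta subunit of ATP synthase. The probe sets of sdhb.S, uqcrfs1.S and atp5f1b.S, among 7 of the 84, are marked by their names as sharing probes with other transcripts. These can be transcripts of the same gene or of close relatives, and their RNA could contribute to the signal. The dimmest were ndufaf2.L (5.55), sdha.S (7.81), uqcrc2.S (7.97), cox4i2.L (3.94) and atp5pd.L (7.68). The member under background was cox4i2.L, the .L homeolog of the cytochrome oxidase isoform that in mammals is linked to lung and low oxygen. Its .S homeolog had a signal of 9.33 ± 0.52 in DEX and 9.17 ± 0.66 in no_DEX.

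No respiratory chain gene passed the test between DEX and no_DEX. With limma (two-sided tests, p-values adjusted by Benjamini-Hochberg over the whole array, calls at an adjusted p under 0.05), 0 of 84 members were called without the replicate number in the model, against 2 of 32539 probe sets, or 0.00615%. With the replicate number as a block it was again 0 of 84, against 180 of 32539, or 0.553%. At an unadjusted p under 0.05 the count was also 0 of 84 in each fit. Of all 32539 probe sets, 1379 were under that limit without the block and 4070 with it. The median residual SD with the block was 0.159 for members and 0.125 for all probe sets. It was 0.113 for probe sets within the interquartile range of member signals, so the count of 0 does not show steadier members. The smallest adjusted p among members was 0.435, with the block, for atp5f1a.L. Differences ran from -0.21 (atp5f1a.L) to 0.20 (ndufa6.S), so the widest was 1.16-fold, with a median of -0.01 beside 0.002 over all probe sets. The 17 other probe sets of member genes ran from -0.15 to 0.22. Of the members 35 had a mean higher in DEX and 49 a mean lower in DEX.

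A missed threshold does not show equal levels, so the intervals matter. Without the block, the 95% interval of the difference lay within ±0.5 (1.41-fold) for 62 of 84 members, and with it for 82 of 84. The lowest and highest interval ends were -0.81 and 0.96 without the block and -0.53 and 0.52 with it. The plot of differences by gene shows the narrower intervals that the block gave for genes such as cox4i2.S, whose level followed the replicate number.

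**Figure D1:**
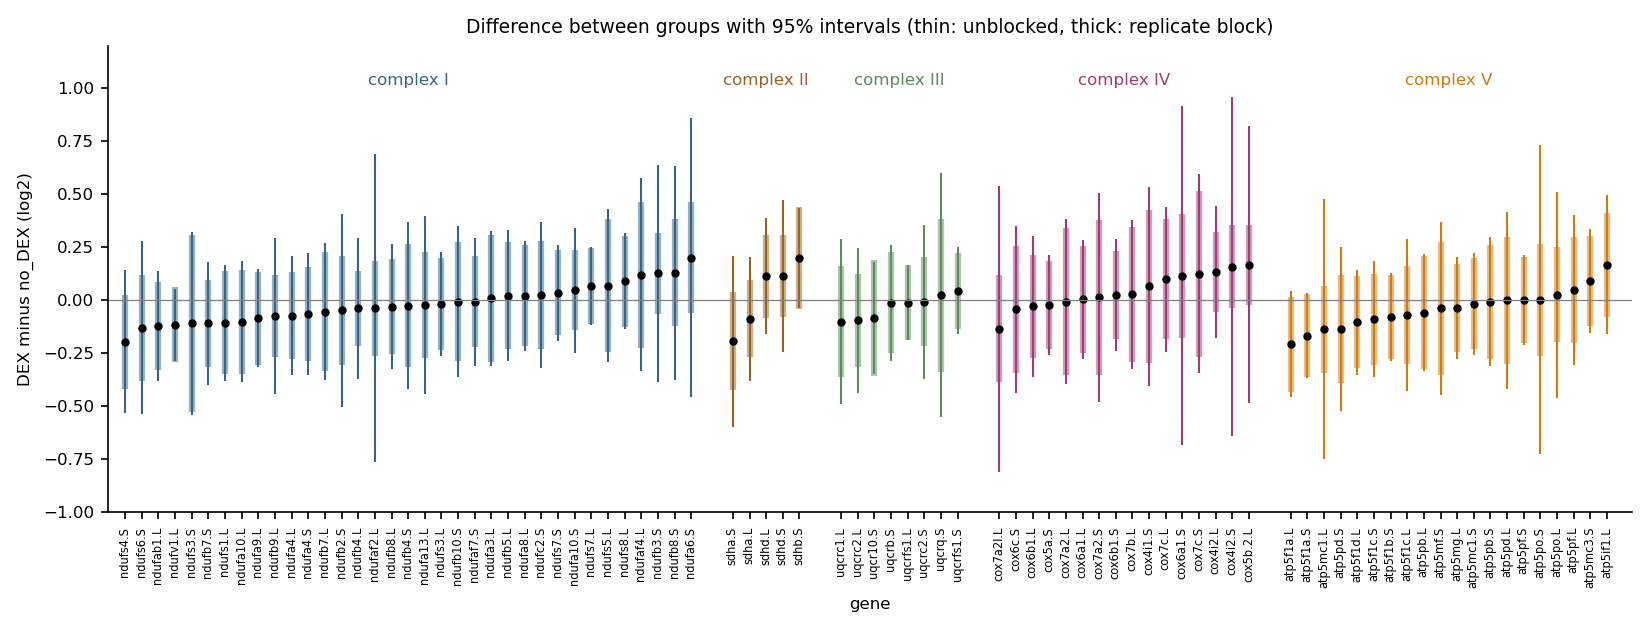
Difference between the DEX and no_DEX group means (log2, vertical axis) for each of the 84 genes (horizontal axis), ordered within each complex. Points are differences, thin bars 95% intervals without the block and thick bars 95% intervals with the replicate number as a block. All points lie between -0.21 and 0.20, and the intervals of all 84 genes include 0.

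In complex I, the entry point for NADH electrons, 13 members had a higher and 22 a lower mean in DEX, with a median difference of -0.03. The widest differences belonged to accessory subunits. For ndufa6.S, an accessory subunit of the LYR family, the DEX arrays gave 8.08, 7.04, 7.40 and 7.47 and the no_DEX arrays 8.001, 6.91, 7.42 and 6.86. The groups overlapped, and the largest gap within a pair was 0.61, in pair 4. Its difference was 0.20 (95% interval -0.06 to 0.46 with the block). For ndufs4.S, an accessory subunit of the electron input module, DEX gave 7.01, 6.89, 6.93 and 6.74 and no_DEX 7.33, 7.28, 7.05 and 6.68. No_DEX was higher in 3 pairs and lower in pair 4, a difference of -0.20 (-0.42 to 0.02 with the block). The acyl carrier subunit ndufab1.L differed by -0.12 and ndufs6.S by -0.13, and neither passed. The catalytic core, 7 probe sets for ndufs1, ndufs3, ndufs7, ndufs8 and ndufv1, ran from -0.12 to 0.09.

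Only 1 member had DEX and no_DEX values that did not overlap, ndufv1.L, which encodes the flavoprotein that accepts electrons from NADH. It was picked out after its values were seen. The DEX arrays gave 10.62, 10.60, 10.60 and 10.52, and the no_DEX arrays 10.69, 10.68, 10.68 and 10.75. All 4 DEX arrays lay below all 4 no_DEX arrays, by a mean of 0.12, and the adjusted p was 0.608 with the block. Groups without overlap were found for 2.76% of all probe sets, and 1 of 84 members is no more than that background.

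Complex II, which carries electrons from the citric acid cycle and pumps no protons, was the smallest group. Its catalytic flavoprotein had lower means in DEX, and its iron-sulfur and membrane anchor subunits higher ones. For sdhb.S, DEX arrays gave 11.11, 10.90, 10.99 and 10.96 and no_DEX arrays 10.64, 11.01, 10.69 and 10.82, a difference of 0.20 (-0.04 to 0.44 with the block). The no_DEX array of replicate 2 lay within the DEX range and the other 3 below it. The homeologs sdha.L and sdha.S differed by -0.09 and -0.19, and sdhd.L and sdhd.S by 0.11 each. No complex II gene passed. Their median, 0.11, was that of an anchor subunit and became -0.005 without DEX replicate 2 and 0.01 without the probe set with shared probes, sdhb.S.

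Complex III hands electrons from ubiquinol to cytochrome c. By the chosen probe sets its 8 members had the narrowest spread of differences, -0.10 to 0.04, with a median of -0.01. Other probe sets of uqcr10.S ran from -0.14 to 0.07, with those at both ends under background. The core protein gene uqcrc1.L had a DEX level of 9.28 ± 0.22 and a no_DEX level of 9.38 ± 0.31. The core protein homeologs uqcrc2.L and uqcrc2.S differed by -0.10 and -0.01. The small subunit genes uqcr10.S and uqcrq.S differed by -0.08 and 0.02, and the Rieske protein gene uqcrfs1.S by 0.04. None of these passed.

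In complex IV, cytochrome c oxidase, 11 members had higher and 5 lower means in DEX, with a median of 0.03. The widest positive difference was 0.17, for cox5b.2.L. DEX arrays gave 6.02, 6.15, 6.20 and 5.28, and no_DEX replicates 1, 2 and 3 lay between 5.99 and 6.02 with replicate 4 at 4.96. DEX was higher in 4 of 4 pairs, while the groups overlapped. For cox4i2.S, DEX arrays gave 9.75, 9.65, 9.34 and 8.59 and no_DEX arrays 9.77, 9.53, 9.13 and 8.27. The pair members followed each other closely, and the difference of 0.16 had an interval of -0.04 to 0.36 with the block but -0.64 to 0.96 without it. The widest negative difference was -0.13, for cox7a2l.L, a factor that in mammals joins complexes III and IV. The genes cox6a1.S (0.11), cox6b1.L (-0.03), cox6c.S (-0.04) and cox5a.S (-0.02) did not pass either.

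Complex V, ATP synthase, had 6 higher and 14 lower means in DEX, with a median of -0.04. Within it the catalytic F1 head ran one way: all 6 probe sets, for the alpha (atp5f1a.L and .S), beta (atp5f1b.S), gamma (atp5f1c.L and .S) and delta (atp5f1d.L) subunits, had lower means in DEX, by differences from -0.21 to -0.07. Lower means in DEX were found for 16016 of all 32539 probe sets, and this grouping by module was read after the values were seen. The alpha subunit gene atp5f1a.L gave 10.43, 10.43, 10.41 and 10.50 in DEX and 10.94, 10.59, 10.48 and 10.59 in no_DEX. DEX was lower in 4 of 4 pairs, by 0.52 in pair 1 and by 0.16 or less in the others, and the highest DEX value, in replicate 4, lay just above the lowest no_DEX value. Its homeolog atp5f1a.S gave 10.31, 10.30, 10.42 and 10.54 in DEX and 10.64, 10.56, 10.51 and 10.55 in no_DEX, a difference of -0.17. With the block the adjusted p was 0.435 for atp5f1a.L and 0.486 for atp5f1a.S, so neither passed.

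The other modules of ATP synthase did not share that sign throughout. The peripheral stalk, which holds the head still (8 probe sets), had a median of 0.00 with 4 above and 4 below 0, and atp5po.L and atp5po.S, for the stalk's top subunit, differed by 0.03 and 0.00. The c ring, the rotor in the membrane, had a median of -0.02 over 3 probe sets, with atp5mc1.L at -0.14 and atp5mc3.S at 0.09. The inhibitor gene atp5if1.L, whose product blocks ATP hydrolysis by the enzyme in mammals, had the widest positive difference of the complex. DEX arrays gave 7.70, 7.68, 8.06 and 8.19, no_DEX arrays 7.89 (replicate 1) and at most 7.80 (the others), and DEX was lower in pair 1 and higher in the other 3 pairs. That difference was 0.17 (-0.08 to 0.41 with the block) and did not pass.

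Against this stands pdk4, the kinase gene upstream of the chain, whose rise was known from earlier results of these data. For pdk4.L, DEX arrays gave 9.35, 9.66, 8.73 and 8.81 and no_DEX arrays 7.54, 8.14, 7.78 and 7.98. The groups did not overlap, and DEX was higher in 4 of 4 pairs. The levels were 9.14 ± 0.45 in DEX and 7.86 ± 0.26 in no_DEX. Their difference of 1.28 gave an adjusted p of 0.272 without the block and 0.0244 with it. For pdk4.S, DEX arrays gave 10.02, 10.39, 9.84 and 10.24 and no_DEX arrays 8.37, 9.13, 9.10 and 9.65, again without overlap. At levels of 10.12 ± 0.24 and 9.06 ± 0.52, its difference of 1.06 had an adjusted p of 0.608, or 0.0424 in the blocked fit. The second probe set of pdk4.S gave 1.11 (0.0396 with the block). Its name marks it as sharing probes with other transcripts, so RNA of close relatives could contribute to it. The calls depend on the block and on most pairs: with the block and without replicate 1, 2 or 3 the adjusted p was 0.0622, 0.130 and 0.0731 for pdk4.L and 0.0922, 0.214 and 0.108 for pdk4.S. Among the other kinase genes, pdk1.L differed by 0.15 and pdk1.S by 0.07 and neither passed.

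The small group differences of the respiratory chain were averages over pairs that differed in opposite directions. Over all 84 members the median DEX minus no_DEX was -0.29 in pair 1, -0.02 in pair 2, 0.05 in pair 3 and 0.22 in pair 4. All probe sets together gave -0.0001, 0.01, 0.01 and -0.01. In pair 1, 77 of 84 members were lower in DEX (91.7%, against 50.0% of all probe sets), and in pair 4, 71 were higher (84.5%, against 47.6%). Both held for 64 members (76.2%, against 24.0%). Probe sets as bright as the members' interquartile range, with means of 8.27 to 10.4 (5798 probe sets), gave 50.4%, 48.1% and 26.6%. Each pair sets 1 array against 1, so no pair's value has a replicate check. These counts were made after the pattern was seen, and genes of the same array are not independent.

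Complexes I, III, IV and V each had their lowest median in pair 1 and their highest in pair 4, and complex II had its lowest in pair 2. Pair 1 gave medians of -0.27 for complex I, -0.36 for complex III, -0.30 for complex IV and -0.33 for complex V, and -0.003 for complex II. All 8 complex III and all 20 complex V members were lower in DEX in pair 1, with 32 of 35 in complex I, 14 of 16 in complex IV and 3 of 5 in complex II. In pair 4 the medians were 0.24, 0.17, 0.33 and 0.08 for complexes I, III, IV and V and 0.13 for complex II, and all 16 complex IV and all 8 complex III members were higher in DEX. In pairs 2 and 3 no complex median was further from 0 than -0.09, the value of complex II in pair 2. Whether complexes differ from each other in these medians was not tested.

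**Figure D2:**
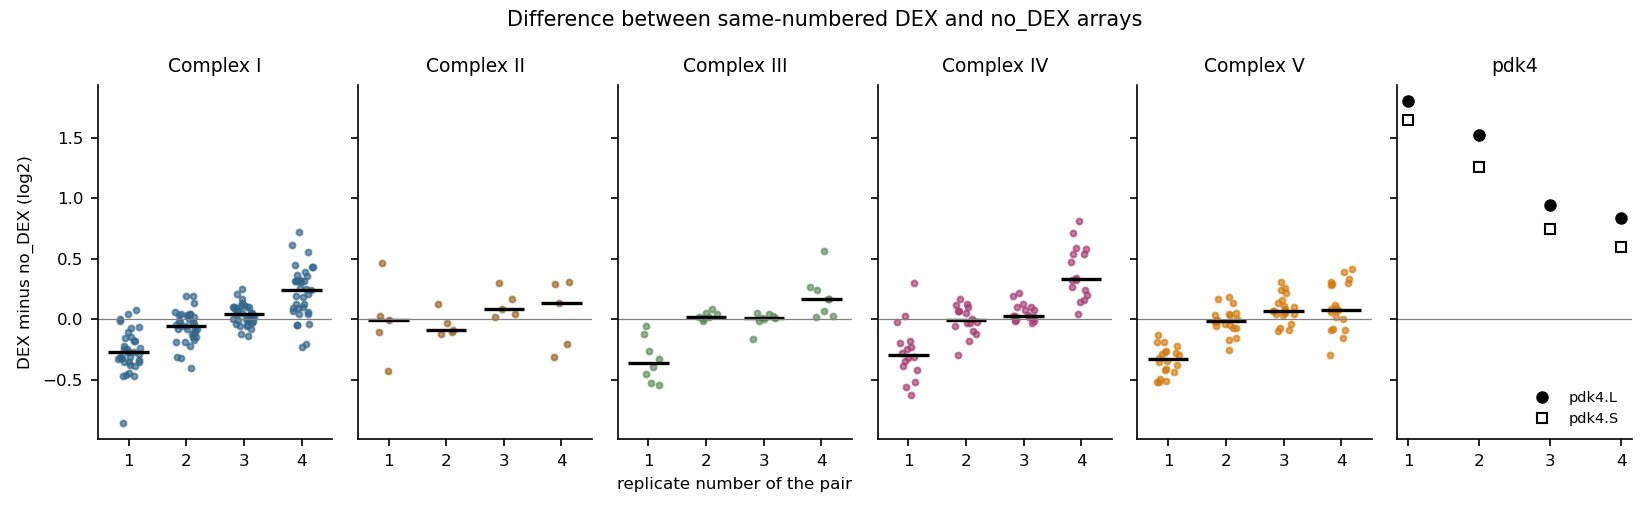
DEX minus no_DEX (log2, vertical axis) within each same-numbered pair (horizontal axis) for the genes of complexes I to V and for the 2 homeologs of pdk4. Each point is a gene and black bars are medians. Pair 1 lies mostly below 0 and pair 4 mostly above 0 in complexes I, III, IV and V, whereas pdk4.L and pdk4.S are above 0 in every pair.

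Single genes show the size of this. The oxidase subunit gene cox7c.S, chosen after its values were seen, gave 11.11, 11.17, 11.38 and 11.28 with dexamethasone and 11.49, 11.12, 11.36 and 10.47 without. The no_DEX arrays of replicates 1 and 4 were 1.03 apart, about a doubling, and the pair differences were -0.39, 0.05, 0.02 and 0.81. For uqcrq.S, a small complex III subunit, the pair differences were -0.55, 0.05, 0.03 and 0.56. The core complex I subunit gene ndufs3.S, also chosen afterwards, had the widest pair difference of all members, -0.86 in pair 1, with 6.48 in DEX and 7.34 in no_DEX. In pair 1, 7 members were higher in DEX, among them sdhb.S by 0.46, and in pair 4, 13 were lower. The F1 head of ATP synthase had a median of -0.36 in pair 1, like the other members, but of -0.04 in pair 4. The pair differences of pdk4.L were 1.80, 1.52, 0.95 and 0.83, and those of pdk4.S 1.65, 1.26, 0.74 and 0.59. So pdk4 differed most in pair 1, where the respiratory chain was lowest in DEX, and least in pair 4, where it was highest. With 4 pairs that share their arrays between both measures, no correlation was computed. This order was not particular to pdk4: the 17 endoderm markers also had their highest pair median in pair 1 (0.69) and their lowest in pair 4 (-0.07).

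The no_DEX arrays were spread further apart than the DEX arrays. Relative to each gene's mean over 8 arrays, the median member stood at -0.06, -0.01, 0.08 and -0.04 in the DEX arrays and at 0.22, 0.04, 0.03 and -0.25 in the no_DEX arrays. The no_DEX array of replicate 1 was the highest of the 8 for 54 members (64.3%, against 16.1% of all probe sets and 22.1% of the equally bright ones). The no_DEX array of replicate 4 was the lowest for 53 (63.1%, against 14.5% and 20.0%). The SD within no_DEX exceeded that within DEX for 65 members (77.4%, against 60.8% and 71.5%), with median SDs of 0.24 and 0.14. By complex, replicate 1 of no_DEX was highest for 24 of 35 members of complex I, 0 of 5 of complex II, 5 of 8 of complex III, 10 of 16 of complex IV and 15 of 20 of complex V. Replicate 4 of no_DEX was lowest for 25, 2, 6, 13 and 7 of them. Without replicate 1 the median difference of all members was 0.08 and without replicate 4 it was -0.09, and 0 members were called either way.

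**Figure D3:**
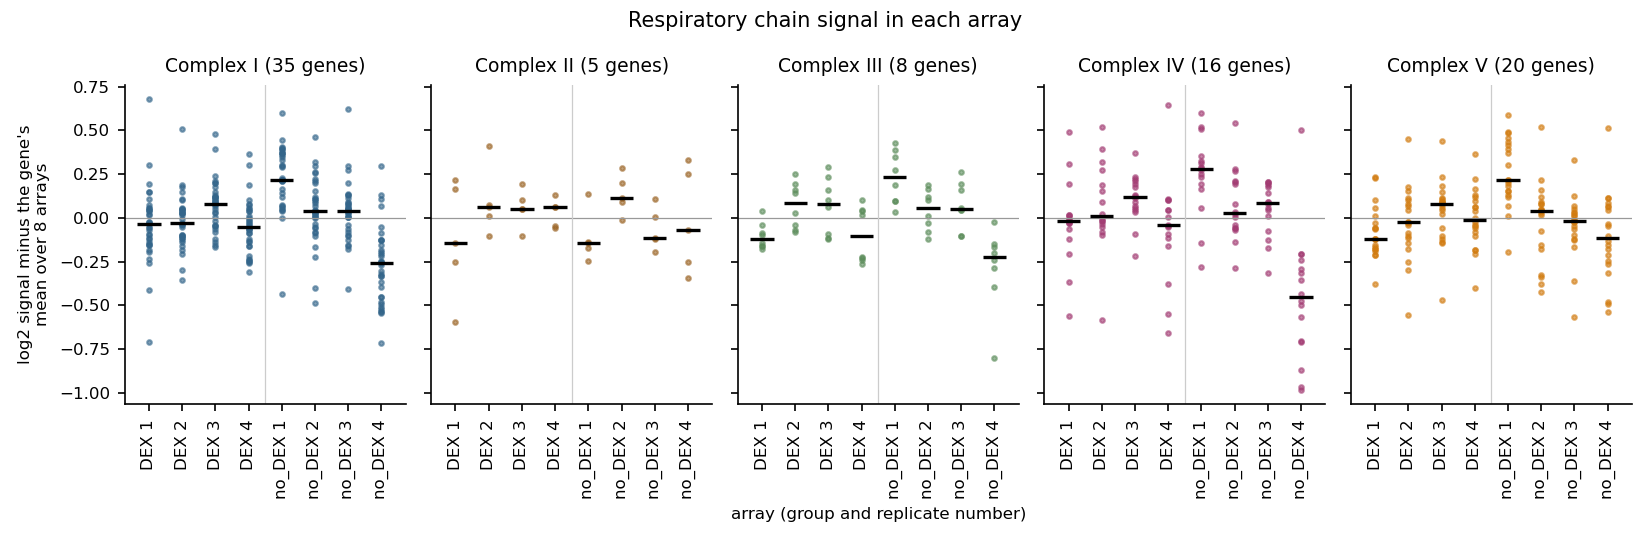
Log2 signal of each gene minus its own mean over the 8 arrays (vertical axis) in each array (horizontal axis), in 1 panel per complex. Points are genes and black bars medians. In complexes I, III, IV and V the median is highest in no_DEX replicate 1. It is lowest in no_DEX replicate 4 in complexes I, III and IV, whereas in complex V it is at -0.12 both there and in DEX replicate 1.

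The same arrays differed in cell type markers. The log2 of the summed signal of the 17 endoderm markers was 13.23, 13.44, 13.32 and 13.62 over the DEX arrays. Over the no_DEX arrays it was 12.60, 13.49, 13.25 and 13.65, lowest in replicate 1. For the 20 skeletal muscle markers this sum was 12.26, 11.70, 11.91 and 11.66 over the DEX arrays. Over the no_DEX arrays the muscle sum was 13.08, 13.20, 12.93 and 11.41. Of the muscle markers, acta1.S, both tnnc1 homeologs, tnnt3.S and both tpm2 homeologs were under background. No_DEX replicate 1 thus had the least endoderm signal and a high muscle signal, and no_DEX replicate 4 had the most endoderm and the least muscle signal. No_DEX replicates 2 and 3 had endoderm sums between those of replicates 1 and 4 and muscle sums like that of replicate 1. Relative to each gene's mean, the median respiratory chain member stood at 0.22, 0.04, 0.03 and -0.25 in the no_DEX arrays. It stood at -0.06, -0.01, 0.08 and -0.04 in the DEX arrays. DEX replicate 4 had endoderm and muscle sums near those of no_DEX replicate 4. For notochord markers the DEX arrays gave 10.71 to 11.09 and the no_DEX arrays 10.93 to 11.60. In the same order the ranges were 12.06 to 12.56 and 12.36 to 12.90 for neural (nrp1.L under background) and 15.24 to 15.37 and 15.26 to 15.46 for epidermis. They were 9.98 to 10.64 and 10.35 to 10.79 for neural crest, 12.23 to 12.39 and 12.13 to 12.41 for blood and endothelium (both gata1 homeologs under background), and 7.51 to 7.98 and 7.93 to 8.43 for heart (both tnni3 homeologs and tnnt2.L under background). Such sums follow their brightest genes and can hide opposite differences. In limma with the block, hba3.L differed by 1.59 (adjusted p = 0.0171) and tal1.S by -1.06 (0.0169). The notochord marker shh.L differed by -0.94 (0.0156) and the heart marker nkx2-5.S by -0.59 (0.0247). Among neural markers elavl3.L differed by 0.88 (0.0350), while sox1.S (-1.08), nkx2-1.L (-0.94) and tubb3.L (-0.63) passed in the other direction. In the heart sum only nkx2-5.S (mean 7.73) was far above background, with myh6.S at 4.41. The part of tissue composition in the respiratory chain values was not tested. The GAPDH 3' minus 5' difference was 0.26 in no_DEX replicate 1 and 0.29 in no_DEX replicate 4, within the range of the other arrays.

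A further layer of variation followed the replicate number in both groups at once. In a limma F-test over the replicate numbers with the group in the model, 14 of 84 members differed between numbers (16.7%), which is under the 20.7% of all probe sets. They were 6 of 35 in complex I, 1 of 5 in complex II, 0 of 8 in complex III, 4 of 16 in complex IV and 3 of 20 in complex V. Over all 101 probe sets of the members 19 passed. Among these were further probe sets in complex III, 1 of uqcrfs1.S (range 0.73, adjusted p = 0.0183) and 1 of uqcr10.S (range 0.49, adjusted p = 0.0420, mean 4.21, under background), where the chosen probe sets did not pass. The median range of the 4 replicate means was 0.36 over members and 0.35 over all probe sets, with 0.35, 0.43, 0.34, 0.44 and 0.29 in complexes I to V. So the respiratory chain was not marked out by this variation. For 6 members the range was above 1, over 2-fold, and how many of all probe sets had such a range was not counted.

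The widest was cox4i2.S, with replicate means of 9.76, 9.59, 9.23 and 8.43 (adjusted p = 0.00115). Both arrays of replicate 4 lay below all others. For cox5b.2.L the means were 6.01, 6.09, 6.10 and 5.12 (adjusted p = 0.0024), with replicate 4 again apart. The oxidase genes cox6a1.S (11.08, 11.20, 10.41 and 10.00) and cox7a2l.L (7.16, 7.07, 7.73 and 8.08) also differed. In cox6a1.S, replicates 3 and 4 were low, and in cox7a2l.L they were high.

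In complex I the accessory subunit gene ndufa6.S was high in replicate 1, with means of 8.04, 6.98, 7.41 and 7.17. The membrane arm genes ndufb3.S, ndufb4.L, ndufb8.S and ndufb9.L differed too, with ranges of 0.86, 0.49, 0.65 and 0.56. The assembly factor gene ndufaf2.L had means of 4.98, 5.25, 6.10 and 5.88, and its second probe set also passed (adjusted p = 0.0102). Both probe sets of ndufb9.L passed but disagreed in pattern: 9.88, 9.91, 10.31 and 9.74 in the chosen one, highest in replicate 3, and 8.71, 9.24, 8.62 and 8.33 in the other, highest in replicate 2. The complex II anchor gene sdhd.S was high in replicate 2 (8.98, 9.47, 9.01 and 9.03), and so was its other probe set. In complex V the genes were atp5mc1.L, for the c ring (7.96, 7.78, 8.63 and 8.62), and both homeologs of the stalk gene atp5po.

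**Figure D4:**
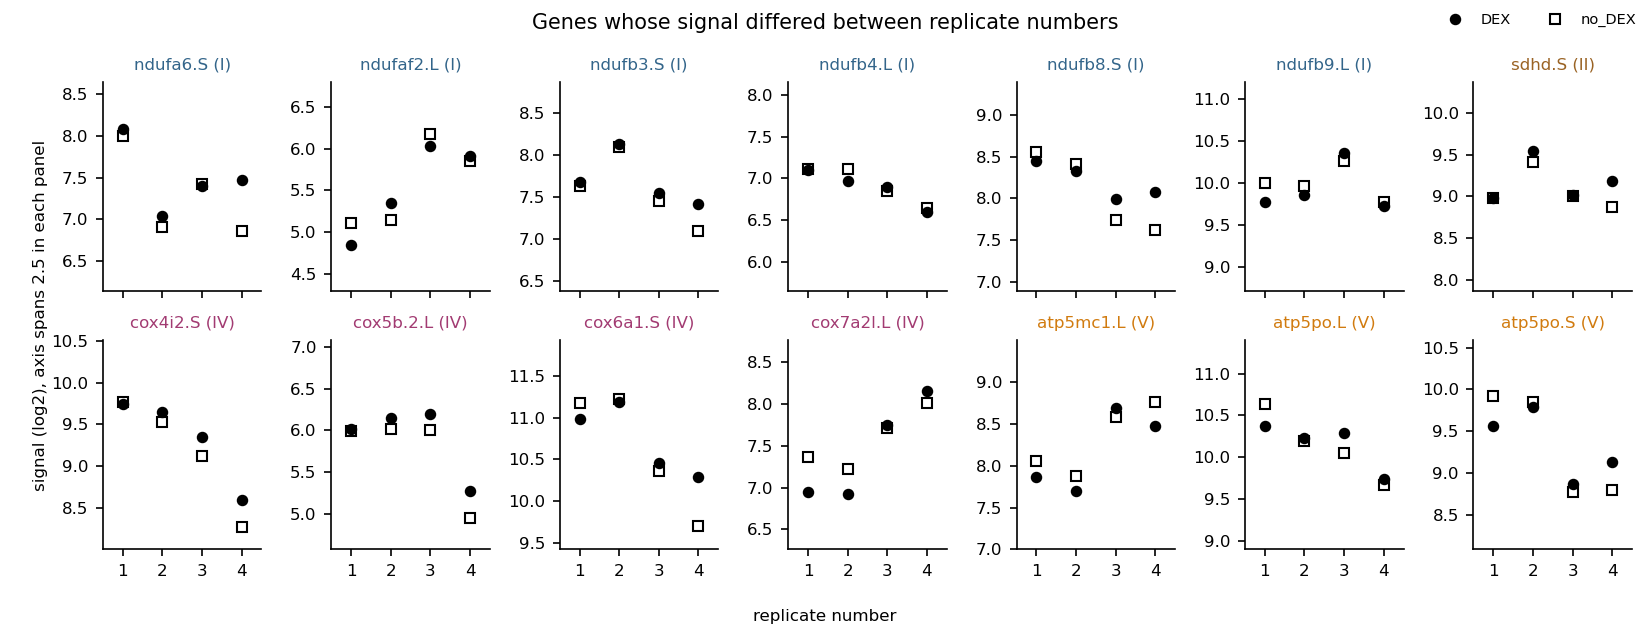
Signal (log2, vertical axis, spanning 2.5 in each panel) by replicate number (horizontal axis) in DEX (filled circles) and no_DEX (open squares) for the 14 genes that differed between replicate numbers, with the complex in parentheses. The 2 arrays of a number mostly lie close together, which the test that chose these genes favours. In replicate 4 they were 0.61 apart for ndufa6.S and 0.45 apart for ndufb8.S. Which number is high or low differs from gene to gene.

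The frog's genome is a doubled one, and for 23 member genes both homeologs were measured. The .L and .S forms were compared in their DEX minus no_DEX difference. Without the block 0 of 23 pairs passed (0% of 2009 homeolog pairs on the array passed), and with it 0 of 23 (0.348% of the 2009). At an unadjusted p under 0.05 the count was also 0 of 23 in each fit, and the share of all homeolog pairs under that limit was not counted. The .L minus .S value ran from -0.16 (ndufb8) to 0.14 (atp5pd). Between replicate numbers the balance of .L and .S differed in 9 of 23 pairs (39.1%), near the 33.0% of all homeolog pairs, by an F-test added after the data were seen. With only probe sets above background it was 8 of 22, and the share of all pairs was 40.3%, so the members do not stand out from the array. The 9 were atp5mc1, atp5pf, atp5po, cox4i2, cox6a1, ndufa4, ndufb8, sdhd and uqcrc2. For cox6a1, .L minus .S was 0.35, 0.05, 0.95 and 1.18 in replicates 1 to 4 (adjusted p = 0.00266), with .L means of 11.4, 11.3, 11.4 and 11.2 that stayed close together while .S varied as given above. For atp5mc1 it was -1.36, -1.55, -0.58 and -0.51 (adjusted p = 0.00473), and there .S stayed close to its level (9.32, 9.33, 9.21 and 9.13) while .L varied. For cox4i2 the .L member is under background, so its difference follows .S alone. Whether sequence differences between embryos under the probes play a part was not tested.

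Genes whose products build, import or accompany the respiratory chain were measured by further lists, chosen like the members with earlier results of these data known. The mitochondrial ribosome genes (52 measured) had pair medians of -0.24, 0.05, 0.05 and 0.17, with 41 of 52 lower in DEX in pair 1 and 43 higher in pair 4. The import genes (timm and tomm, 22) gave -0.35, 0.03, 0.01 and 0.29, with 18 lower in pair 1 and 20 higher in pair 4. Genes for complex assembly (25, of which 3 are also members) gave -0.09, 0.04, 0.08 and 0.20, and cytochrome c, uncoupling and carrier genes (18) gave -0.19, 0.001, 0.01 and 0.10. Medians of the lists for carbon metabolism and control spanned less. The citric acid cycle (17) gave -0.09, -0.01, 0.02 and 0.01, glycolysis and lactate genes (32) 0.11, -0.02, 0.10 and 0.10, and regulators of mitochondrial biogenesis (17) -0.05, -0.04, -0.05 and -0.01. The pyruvate dehydrogenase list (15, with pdk4 in it) had medians above 0 in all 4 pairs, 0.05, 0.11, 0.06 and 0.17. These lists share arrays with the members, and no test set them against each other.

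**Figure D5:**
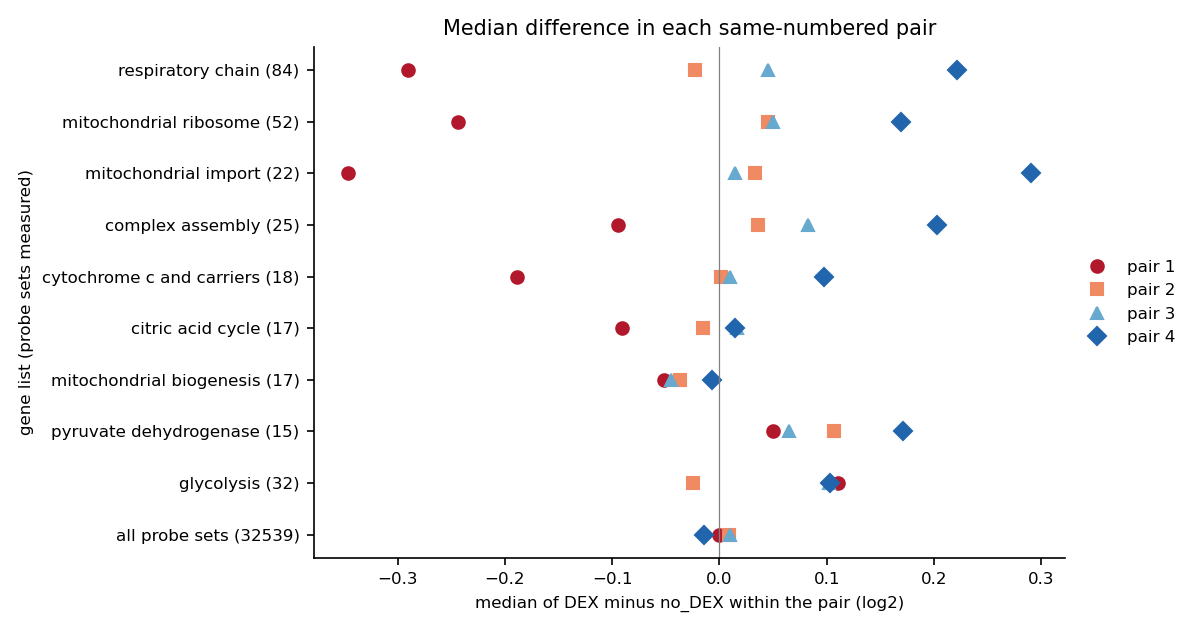
Median of DEX minus no_DEX (log2, horizontal axis) in each same-numbered pair for the respiratory chain, 8 further lists and all probe sets (vertical axis, with the number measured). The gap between pairs 1 and 4 is widest for the import genes (-0.35 and 0.29), followed by the respiratory chain (-0.29 and 0.22).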

How the data were processed

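The deposited table held log2 expression values for 8 arrays, and the submitters' processing notes name RMA, which corrects background, normalizes quantiles and summarises probes, with no version given. RMA shrinks differences of dim probe sets. Of 32635 probe sets, 96 Affymetrix controls were left out. Symbols came from the platform annotation: 15495 probe sets had 1 symbol, 279 several and 16765 were unlisted and stay unnamed. No member symbol was among those with several. Members and lists were chosen with earlier results of these data known, and the array patterns and the homeolog F-test after their values were seen.

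Groups were compared on the values as deposited with limma 3.58.1 in R 4.3.3 (lmFit, eBayes, Benjamini-Hochberg over all 32539 probe sets tested), without and with the replicate number as a block. Deviations from group means correlated at 0.63 to 0.78 between arrays of the same number and at most 0.20 otherwise, each above 0.1, and the replicate numbers were therefore treated as pairing. Replicate numbers were compared by limma's F-test. P-values set each difference against the spread between these arrays, with the block against the spread left after the replicate number. The rule named, in each complex, members called in any fit, the 3 largest rises and falls, the 3 widest replicate ranges, the highest and lowest level, tissue isoforms and the pdk genes, and in further lists the called and the 3 widest. The fit was tested on simulated data. Tables were handled with Python 3.11.15 and pandas 2.3.3.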

Additional observations from a re-analysis of the deposited data

Results flagged for a closer look

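Among 176 groups of 4 arrays examined for the members and their probe sets named here, 2 held an array far from the other 3, fewer than the 1 in 20 that chance gives. The no_DEX array of replicate 4 gave 4.96 for cox5b.2.L, while the others lay between 5.99 and 6.02, so its gap took 0.972 of the group's range. The same array gave 7.58 for the complex III core gene uqcrc2.S, while the others lay between 8.07 and 8.17, a gap of 0.835 of the range. For both genes the DEX array of replicate 4 was also the lowest of its group.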

How the results depend on the processing

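The count of 0 members called between DEX and no_DEX held under all 21 alternatives, including the replicate block, array medians centred, only probe sets above background, no probe sets with shared-probe suffixes, a trend prior and each array or number left out, with the smallest adjusted p between 0.265 and 1.00. The homeolog count of 0 held under all 18. The replicate block changed no call among the members, their homeolog pairs or the further lists other than pdk4, while over the whole array it took the calls from 2 to 180. For pdk4.L the difference of 1.28 passed with the replicate block (0.0244), and with it when the medians were centred (1.27, 0.0257), when only probe sets above background were kept (0.0324), with a trend prior (0.0122) and without replicate 4 (1.42, 0.0333). For pdk4.S the difference of 1.06 passed with the block (0.0424), centred (1.05, 0.0457), with the trend prior (0.0219) and without replicate 4 (1.22, 0.0495), but not with only probe sets above background (0.0522). Over all arrays or numbers left out the difference was 1.10 to 1.42 for pdk4.L and 0.83 to 1.26 for pdk4.S. The 14 members that differed between replicate numbers became 9 to 17 with a number left out, where fewer arrays were tested. Without replicate 2 or 4 there were 9 (10.7%, against 11.3% and 14.2% of all probe sets). Without replicate 1 there were 17 (20.2%, against 20.2%). The 9 homeolog pairs became 4 without replicate 3 and 4 to 7 over all numbers left out, and 8 of 22 with only probe sets above background. Over all homeolog pairs on the array the share fell as well, from 33.0% to 19.2% without replicate 3. With an array or number left out the median difference was -0.10 to 0.08 over all members, and -0.10 to 0.08, -0.005 to 0.16, -0.15 to 0.06, -0.11 to 0.15 and -0.12 to 0.07 in complexes I to V, so no complex kept a sign throughout. The complex II median was -0.0048 without DEX replicate 2 and 0.0126 without shared-probe suffixes, in place of 0.11. The number of arrays limits the precision, and dim probe sets such as cox4i2.L carry little information.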

Other observations

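Of the further lists of mitochondrial and carbon metabolism genes, 2 genes passed between the groups, pdk4.L and pdk4.S, both with the block only. Among the widest differences that did not pass were 2 homeologs of the glycolytic mutase gene pgam1. Those of pgam1.S were 2.92, 0.78, 0.38 and 0.95 in pairs 1 to 4, a mean of 1.26 (adjusted p = 0.189 with the block), and those of pgam1.L 1.52, 0.47, 0.04 and 1.04, a mean of 0.77 (0.181). The related gene pgam2.L, with a mean of 4.01 under background, differed by -0.60 (0.436). The citric acid cycle gene mdh2.L, for mitochondrial malate dehydrogenase, was higher in DEX in 4 of 4 pairs by 0.30 (0.203 with the block). Its homeolog mdh2.S did not share this, with pair differences of -0.36, 0.31, -0.04 and 0.78 (0.749). The gene esrra.L, for an orphan nuclear receptor that drives mitochondrial genes in mammals, was lower in 4 of 4 pairs by a mean of -0.37 (0.136), and twnk.L, for the mitochondrial DNA helicase, by -0.29 (0.257). In the same list nrf1.S went the other way and was higher in DEX in 4 of 4 pairs by 0.27 (0.190). The pyruvate dehydrogenase phosphatase regulator gene pdpr.L was higher in 4 of 4 pairs by 0.33 (0.156). The share of all probe sets with the same direction in 4 of 4 pairs was not counted. Of the rest, uqcc2.L (0.33), ckmt1b.L (-0.35), mrpl11.S (0.37) and timm13.S (0.24) led their lists and did not pass.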
